A study of Mus musculus with 2 samples.

Results

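The paraventricular nucleus of the hypothalamus (PVN) is specified by transcription factors. Here 10 genes, grouped as transcription factors of the PVN lineage, were examined out of 21887 protein-coding genes. The list was Otp, Sim1, Sim2, Arnt2, Pou3f1, Pou3f2, Pou3f3, Nhlh2, Uncx and Ebf3, and the gene table held all 10. For each gene, every region with its summit inside the gene or within 250 kb of it was collected from 2 CUT&RUN peak lists. CUT&RUN cuts and releases the DNA around a protein that an antibody holds on chromatin. Both libraries came from PVN nuclei of adult mice labelled WT and as neurons. They differed in the antibody, which recognised Otp in the first and was IgG in the second, a control antibody with no target. With 1 library for each antibody, differences between them carry no replicate check and could not be tested. A peak list does not measure expression, so the tissue label could not be checked against marker genes.

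Otp and Uncx encode homeodomain proteins. Sim1 and Sim2 encode bHLH-PAS proteins that bind DNA as pairs with a partner, which for Sim1 in the hypothalamus is Arnt2. In mice, loss of Otp, Sim1 or Arnt2 impairs the neurons of the PVN that make vasopressin, oxytocin and corticotropin-releasing hormone. The POU factor Pou3f2 (Brn2) is needed for the same neurons. Pou3f1 and Pou3f3 are its close relatives, Nhlh2 is a bHLH factor whose loss in mice causes obesity, and Ebf3 belongs to the EBF family of neuronal differentiation factors.

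The 10 windows, 5.46 Mb in all, held 36 of the 11379 regions of the Otp antibody list and 3 of the 291 regions of the IgG list. Regions of the Otp antibody list are called Otp regions below. The 36 regions were of ordinary strength for that list. Their median fold enrichment, the authors' ratio over the peak caller's own background, was 6.70 (4.50 to 21.3), against 6.97 in the whole list. Pileups, in tags (reads or fragments) at a summit, were worked out from the deposited fold and −log10 p. They were available for 35 of the 36, with a median of 12 tags (6 to 44), against 13 tags in the whole list. The IgG library was the shallower one, with a genome background of 0.512 tags for the Otp antibody and 0.0873 tags for IgG, a ratio of 5.86. Scaled down by that ratio, 34 of the 35 pileups corresponded to fewer than 4 tags, the lowest pileup found among the IgG regions. Of the 34, 32 had no IgG region over them, and there an excess of the Otp antibody over IgG was not detectable at this depth. The other 2 are described below with both pileups. Total depth is unknown.

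**Figure D1:**
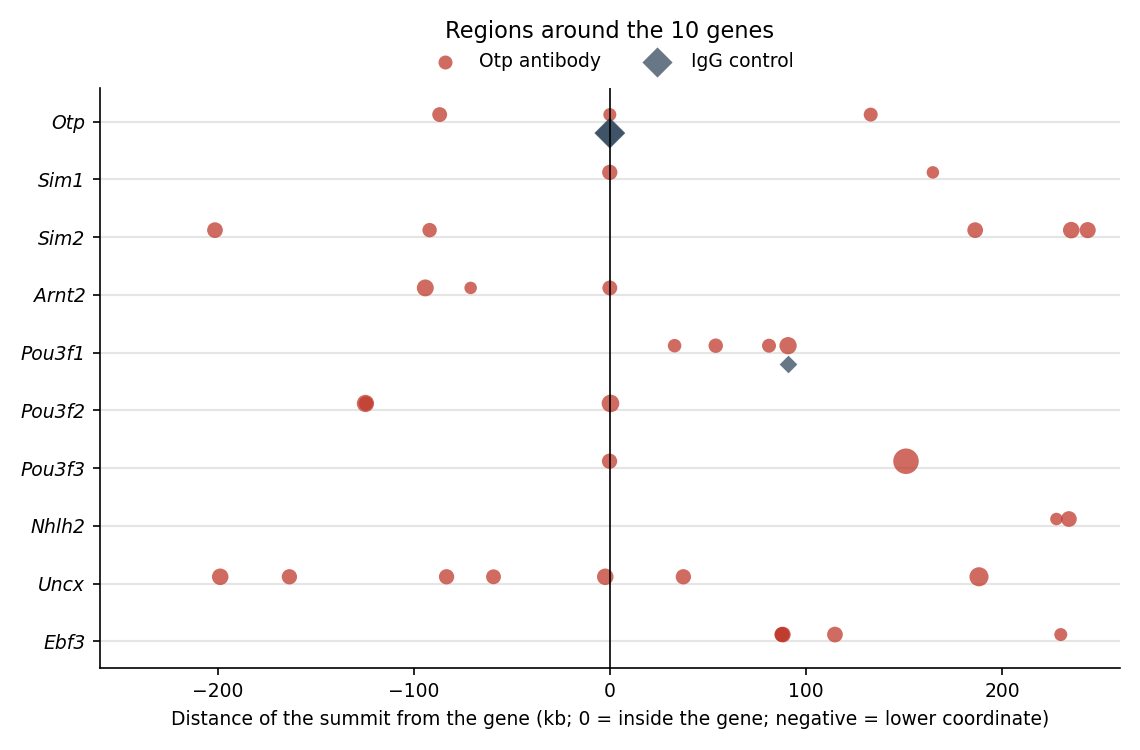
Regions around the 10 genes, plotted by the distance of the summit from the gene in kb, with the gene at 0 and lower coordinates on the left. Red circles are the 36 Otp regions and dark diamonds below them the 3 IgG regions, drawn larger for more tags (the region 71.0 kb below Arnt2 has no pileup and is drawn at the smallest size). Regions sit on the line at 0 for Otp, Sim1, Arnt2, Pou3f2, Pou3f3 and, 2335 bp away, Uncx, while the nearest ones to Sim2, Pou3f1, Nhlh2 and Ebf3 are 33.0 to 228 kb away.

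Of the 10 genes, 3 had an Otp region within 1 kb of an end, namely Sim1, Pou3f2 and Pou3f3. The share of all protein-coding genes with such a region was 27.2%, so 3 of 10 lay near the background. A further 2 genes, Arnt2 and Otp, had an Otp region inside the gene, where the background was 18.9%. Together 5 of 10 had a region at an end or inside, against 35.3% of all genes. No member had an IgG region within 1 kb of an end (background 0.379%), and 1 member, the Otp gene, had IgG regions inside it (background 0.315%). Widening the distance to 5 kb added Uncx, Arnt2 and Otp to the first 3 and gave 6 of 10 genes, against 34.4% of all genes. The other 4 had no Otp region within 33.0 kb.

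Gene ends alone do not say which end is the start, so the RefSeq promoter table (build GRCm38.p6, which shares its coordinates with mm10) was used for strand and start. It held 8 of the 10 genes, all but Sim2 and Pou3f1, with 250 bases before and 50 after each start. An Otp region overlapped this promoter window at Pou3f2, Pou3f3 and Arnt2, which is 3 of 8 promoters, against 24.3% of the 21263 promoters of protein-coding genes in the table. The sequences below show the 250 bases before the start of each of the 3, with the bases covered by the Otp region in capitals. The fourth is the promoter of A230054N11Rik, a long non-coding RNA gene that starts beside Sim1 on the opposite strand, because the region at Sim1 fell there. All 4 are printed from 5′ to 3′ along the gene's own strand.
Pou3f3: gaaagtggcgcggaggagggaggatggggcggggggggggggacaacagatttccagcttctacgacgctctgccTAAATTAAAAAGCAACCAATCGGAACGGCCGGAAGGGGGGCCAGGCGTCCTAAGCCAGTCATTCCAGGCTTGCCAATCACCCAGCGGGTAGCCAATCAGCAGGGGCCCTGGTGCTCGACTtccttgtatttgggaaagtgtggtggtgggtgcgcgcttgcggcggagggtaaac
Pou3f2: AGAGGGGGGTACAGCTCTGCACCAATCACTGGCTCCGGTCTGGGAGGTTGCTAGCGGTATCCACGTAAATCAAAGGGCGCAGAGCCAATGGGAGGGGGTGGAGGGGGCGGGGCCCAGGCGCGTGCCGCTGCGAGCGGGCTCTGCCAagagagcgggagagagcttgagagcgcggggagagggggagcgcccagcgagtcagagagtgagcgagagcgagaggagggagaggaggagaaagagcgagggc
Arnt2: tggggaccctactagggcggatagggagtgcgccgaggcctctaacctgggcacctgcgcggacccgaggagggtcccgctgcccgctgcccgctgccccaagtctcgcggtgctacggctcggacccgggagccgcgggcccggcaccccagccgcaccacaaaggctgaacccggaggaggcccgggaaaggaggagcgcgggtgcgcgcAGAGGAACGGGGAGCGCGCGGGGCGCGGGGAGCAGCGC
A230054N11Rik: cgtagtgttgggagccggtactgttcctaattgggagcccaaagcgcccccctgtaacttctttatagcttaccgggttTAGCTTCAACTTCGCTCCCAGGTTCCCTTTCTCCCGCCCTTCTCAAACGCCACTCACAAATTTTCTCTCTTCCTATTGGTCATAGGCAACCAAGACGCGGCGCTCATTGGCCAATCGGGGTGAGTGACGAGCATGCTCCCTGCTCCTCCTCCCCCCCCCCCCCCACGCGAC
They cover chr1:42695518-42695767 (forward strand), chr4:22488367-22488616 (reverse), chr7:84410039-84410288 (reverse) and chr10:50894535-50894784 (reverse).

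Pou3f2 had the strongest of these regions. The gene (gene ID 18992) spans 22482095 to 22488366 on chromosome 4 and is read from the reverse strand. Its Otp region covered positions 22488471 to 22488768, 298 bp and the widest of the 36, with the summit 337 bp upstream of the start. The Otp library had 18 tags there (95% Poisson interval 10.7 to 28.4) at a fold enrichment of 8.70 and a −log10 q of 12.2, and the IgG list had no region. It ranked 3035 of 11379 by −log10 q. In the printed promoter it takes the first 146 of 250 bases, the side away from the start.

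Pou3f3 (Brn1, gene ID 18993, chromosome 1, 42695768 to 42700210, forward strand) had its region at positions 42695593 to 42695712. The summit lay 146 bp upstream of the start, with 12 tags (6.20 to 21.0), a fold enrichment of 7.15 and a −log10 q of 7.54. All 120 bases of the region lie in the printed promoter. The IgG list had no region there either. By outer gene ends the nearest other gene was the long non-coding RNA gene Pantr1, 797 bp away. By the starts in the promoter table, the long non-coding RNA gene Gm46091 starts nearer, 714 bp from the summit and on the same strand as Pou3f3.

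Arnt2 (gene ID 11864, chromosome 7, 84246274 to 84411741, reverse strand) had a narrow region of 78 bp at positions 84409999 to 84410076. By the gene's outer ends this region is 1702 bp inside Arnt2. By the start in the promoter table its summit lay 1 bp upstream, so it is a region at a start. It had 11 tags (5.49 to 19.7) and a fold enrichment of 5.40, and ranked 9164 by −log10 q (4.68). The printed sequence holds 38 of its bases, and the other bases follow the start.

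Sim1 (gene ID 20464, chromosome 10, 50894698 to 50989156, forward strand) had a region of 192 bp at positions 50894514 to 50894705. It had 12 tags (6.20 to 21.0), a fold enrichment of 6.69 and a −log10 q of 6.84, with no IgG region. Its summit lay 27 bp outside the lower end of Sim1, but 980 bp upstream of the start that the promoter table gives. The same summit lay 137 bp upstream of the start of A230054N11Rik, and all 192 bases fell within that gene's promoter window. The summit therefore lay between a pair of starts that face away from each other.

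Uncx (gene ID 22255, chromosome 5, 139543865 to 139548179, forward strand) had no region over its promoter. The closest Otp region, of 75 bp at positions 139541503 to 139541577, had its summit 2368 bp upstream of the start and 191 bp from an end of the long non-coding RNA gene 4930500L23Rik. It had 15 tags (8.40 to 24.7), a fold enrichment of 8.04 and a −log10 q of 9.91, the second highest −log10 q of the 7 regions in the Uncx window. The IgG list had no region there.

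The Otp gene (gene ID 18420, chromosome 13, 94875636 to 94885125, forward strand) was the one member where IgG exceeded the Otp antibody. The Otp list had a single region in the gene, at positions 94877158 to 94877284, 1565 bp downstream of the start. It had 7 tags (2.81 to 14.4) and ranked 10956 of 11379 by −log10 q (3.00). The IgG list had a region over the same place, at positions 94877115 to 94877529, with 27 tags (17.8 to 39.3), and another at positions 94883106 to 94883575 with 31 tags (21.1 to 44.0), where the Otp list had none. Scaled by the ratio of the genome backgrounds, these IgG pileups corresponded to 158 and 182 tags in the Otp library. With 415 and 470 bp they ranked 13 and 8 by width among the 291 IgG regions, whose median width was 109 bp.

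Set beside the other shared regions, the imbalance at the Otp gene stood at the end of the distribution. The ratio of the IgG pileup to the Otp pileup, without scaling for depth, was 3.86 there. It was the highest of the 235 IgG regions for which both pileups were available, whose median was 0.302 and whose second highest ratio was 1.25. At the other shared place in the 10 windows, inside Inpp5b near Pou3f1, the ratio was 0.353. These ratios are of unscaled pileups, so a low ratio does not mean that the Otp antibody exceeded IgG after scaling. Scaled by the ratio of the genome backgrounds, the IgG pileup in Inpp5b corresponded to 35.2 tags, above the 17 of the Otp library. Of all 291 IgG regions, 11 overlapped no Otp region, and the second region in the Otp gene, with 31 tags, had the second highest pileup of these 11 (median 5 tags, highest 219). In the genome 5 protein-coding genes held 2 or more IgG regions, and the Otp gene, at 9.49 kb, was the shortest of them. The other 4 were Smo, E030030I06Rik, Tmem267 and Myo3a, which held at least as many Otp regions as IgG regions.

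**Figure D2:**
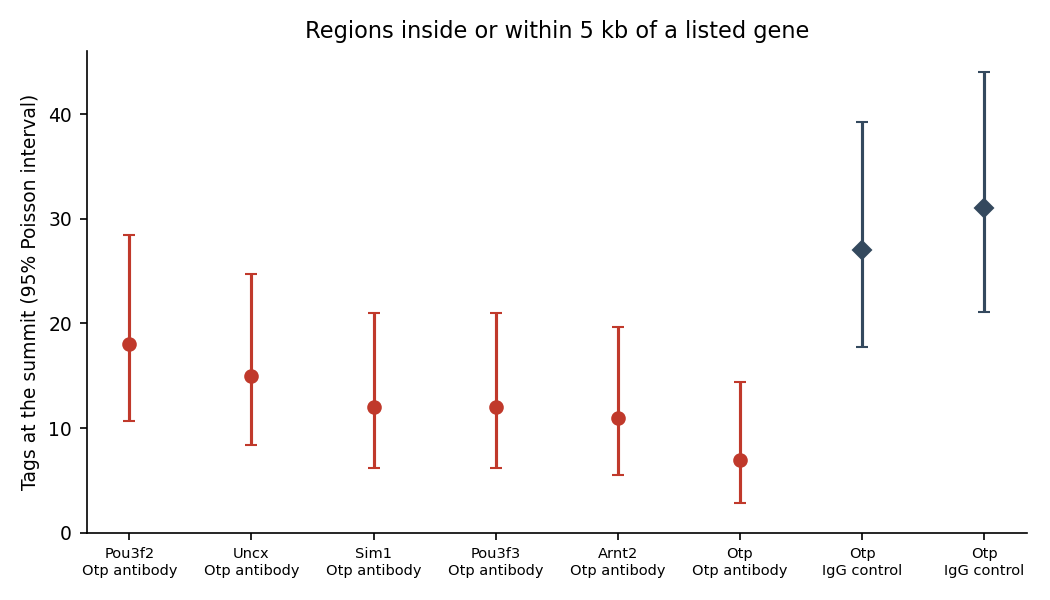
Tags at the summit of the 6 Otp regions inside or within 5 kb of a listed gene (red circles) and of the 2 IgG regions inside the Otp gene (dark diamonds), with 95% Poisson intervals that cover counting error only. The Otp pileups run from 18 tags at Pou3f2 to 7 tags at the Otp gene with intervals that overlap. The 2 IgG pileups of 27 and 31 tags lie above these values although the IgG library had the lower background. Their intervals lie above that of the Otp region in the Otp gene (2.81 to 14.4). They overlap others, among them that of Pou3f2 (10.7 to 28.4).

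No Otp region lay inside the other 4 genes or within 1 kb of their ends. Sim2 (gene ID 20465, chromosome 16, 94085104 to 94127032) had its closest region 91.9 kb away, in the claudin gene Cldn14. Pou3f1 (gene ID 18991, chromosome 4, 124657646 to 124660655) had it 33.0 kb away, 69 bp from an end of Utp11, a gene of ribosome assembly. Nhlh2 (gene ID 18072, chromosome 3, 102010111 to 102015492) had 2 regions, 228 and 234 kb away, and both lay outside coding genes. Ebf3 (gene ID 13593, chromosome 7, 137193671 to 137322805) had its closest region 87.7 kb from its upper end. This is the nearest of 3 regions within the gene 9430038I01Rik, at positions 137410428 to 137410536, 137410638 to 137410802 and 137411009 to 137411134, with 11, 11 and 13 tags. They lie 96047 to 96587 bp upstream of the Ebf3 start.

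Most regions of the windows were at other genes. Of the 36 Otp regions, 5 were at a member, 15 lay within 1 kb of an end of another protein-coding gene, 9 were inside such genes and 7 were outside coding genes. Counting members and neighbours alike, 18 of 36 were at a gene end (95% exact binomial interval of the share 32.9 to 67.1%), against 48.7% of all nuclear regions in the list. The bound of 250 kb fell closest to a region at Sim2, where a region 244 kb away at Ttc3 (−log10 q 6.20) was counted and one 253 kb away at Morc3 (18.8) was not. The 15 regions belonged to 14 neighbouring genes: Tbca, Chaf1b, Ttc3, Abhd17c, Utp11, Sf3a3, Inpp5b, Fbxl4, Mrps9, Cox19, 3110082I17Rik, Zfand2a, Micall2 and Glrx3.

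The highest region of the 10 windows was one of these. It lay 151 kb from Pou3f3, with its summit 15 bp from an end of Mrps9, a protein of the mitochondrial ribosome (positions 42851089 to 42851304). It had 44 tags (32.0 to 59.1) and a fold enrichment of 21.3, and was the 1 region of the 35 that scaled to at least 4 IgG tags, with 7.50. The highest region near Uncx was at Micall2 (12.1-fold, 22 tags). Near Pou3f2 it was at Fbxl4, an F-box protein of mitochondria (9.53-fold, 17 tags), 125 kb from the gene and with a −log10 q of 13.0. In the Arnt2 window it was at Abhd17c (8.85-fold, 16 tags), in the Otp window at the tubulin cofactor Tbca (7.01-fold, 11 tags), and in the Ebf3 window at the glutaredoxin Glrx3 (7.75-fold, 13 tags). In the Sim2 window it was inside Pigp, a gene of GPI anchor synthesis (7.90-fold, 15 tags). In the Nhlh2 window it was 44.8 kb from the nearest end of a coding gene, Vangl1 (9.26-fold, 13 tags). Sim1 alone had its highest region at the member itself.

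Near Pou3f1 the highest region lay inside the phosphatase gene Inpp5b at positions 124751393 to 124751593, with 17 tags (9.90 to 27.2) in the Otp library. The IgG library had a region of 6 tags (2.20 to 13.1) within it, at positions 124751428 to 124751503. Scaled by the ratio of the genome backgrounds, this pileup corresponded to 35.2 tags in the Otp library. This place and the first region in the Otp gene were the 2 of 36 Otp regions that overlapped an IgG region (5.56%, 0.680 to 18.7%), against 2.46% of the whole Otp list.

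The Uncx window held the most regions. The number of Otp regions was 7 at Uncx, 5 at Sim2 and at Ebf3, 4 at Pou3f1, 3 at Otp, Arnt2 and Pou3f2, and 2 at Sim1, Pou3f3 and Nhlh2. Pooled over the 10 windows this is 6.59 regions per Mb (95% Poisson interval 4.61 to 9.12), and the IgG list gave 0.549 per Mb (0.113 to 1.60). The median over the loci was 5.91 per Mb, against 7.34 per Mb (quartiles 3.25 and 11.8) over the windows of all protein-coding genes. Each locus was also set beside all genes of its own length decile. Of the 10, 3 lay above the median of these genes (Sim2, Uncx and Ebf3). Pou3f1 and Arnt2 held as many regions as the median gene of their decile, 4 and 3, and the other 5 held fewer.

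The windows of these genes hold few other genes, with a median of 4 protein-coding genes against 9 for all genes, and 15 of the 36 Otp regions lay at ends of other genes. Sim1, Pou3f2 and Pou3f3 each had 1 other coding gene in the window. Beside genes of the same length decile and the same quintile by gene count in the window, 7 of the 10 loci lay above the median, among them Pou3f2 (5.93 regions per Mb against a median of 1.98), Pou3f3 (3.96 against 1.98) and Nhlh2 (3.96 against 1.98). Ebf3 and Uncx were highest, with a density above that of 93.3% and 90.8% of such genes. Regions very close together were counted separately, which raises some densities. At Ebf3 these were the regions inside 9430038I01Rik, with distances from 87687 to 88227 bp. At Pou3f2 they were those 36 and 197 bp from an end of Fbxl4. Densities with such neighbours counted once were not computed. Sim1 (3.36 against 3.51) and Arnt2 (4.51 against 4.87) lay just below. Pou3f1, counted above (7.95 against 7.94), and Otp, counted below (5.888 against 5.890), were ties in effect. Genes with equal gene counts were split between quintiles by their order in the gene annotation. Nhlh2 and Otp each had 4 other coding genes but fell in different quintiles. The place of Nhlh2, and with it the count of 7, can therefore depend on that order. The same call thus turned on the genes compared, and 36 regions stood beside 29.6 from the means of the second comparison and 46.8 from those of the first. These are descriptions of 1 peak list.

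**Figure D3:**
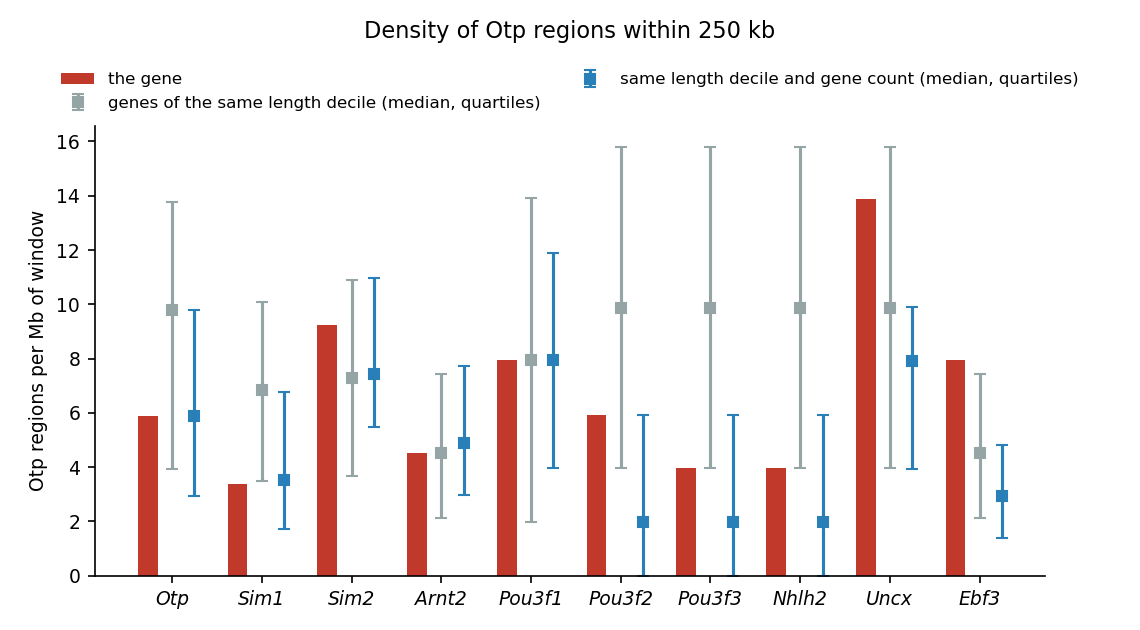
Otp regions per Mb of window for each of the 10 genes (red bars), beside the median and quartiles of genes of the same length decile (grey) and of genes with the same length decile and the same quintile of gene count in the window (blue). Uncx, Sim2 and Ebf3 rise above the grey medians, while Pou3f2, Pou3f3 and Nhlh2 lie below the grey medians of 9.86 and above the blue medians of 1.98.

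Base composition went with the presence of a region at promoters in general. Over all promoters of coding genes, the share with an Otp region was 0.893% in the decile with the lowest GC content, 43.3% in the eighth decile (median GC 64.7%) and 26.8% in the highest. The members fell along this range. Pou3f2 had a GC content of 67.7% and Pou3f3 of 60.3%, in deciles where 42.1% and 39.4% of promoters had a region. Arnt2, at 76.7%, lay in the highest decile. Of those without a region, Nhlh2 (43.3%) and Sim1 (46.0%) lay in the second decile, where 4.52% had one. The other 3 without a region were Uncx (60.7%), Otp (58.7%) and Ebf3 (77.0%), each close in GC content to one of the 3 promoters with a region.

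**Figure D4:**
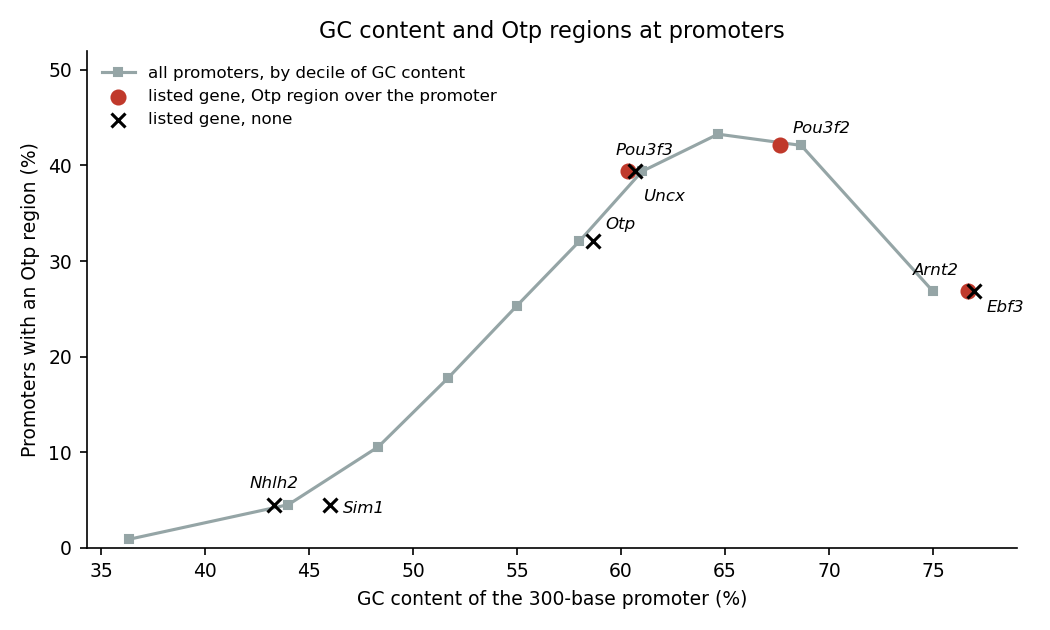
Share of promoters with an Otp region against GC content of the 300-base promoter, for all promoters by decile of GC content (grey squares at each decile's median). The 8 listed genes with a promoter entry are placed at their own GC content and their decile's share, with a red circle where an Otp region overlapped the promoter (Pou3f3, Pou3f2, Arnt2) and a cross where none did, and circles and crosses lie side by side for Pou3f3 and Uncx (60.3 and 60.7%) and for Arnt2 and Ebf3 (76.7 and 77.0%).

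Homeodomain proteins of the Otp class are known to favour sites with the core TAATTA. Of the 8 member promoters, that of Uncx alone held these letters (the letters read the same on both strands), and it had them at 2 places, in capitals below. It is shown because it is a promoter with the core and without a region, on the forward strand at chr5:139543648-139543897.
Uncx: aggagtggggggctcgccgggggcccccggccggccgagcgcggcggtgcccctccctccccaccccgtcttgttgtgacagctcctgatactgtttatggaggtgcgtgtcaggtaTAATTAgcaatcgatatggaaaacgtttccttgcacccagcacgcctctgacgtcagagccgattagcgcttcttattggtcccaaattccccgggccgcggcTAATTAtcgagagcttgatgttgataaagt
None of the 3 promoters with a region held TAATTA. Over all promoters of coding genes the core was in 2.27% of the 5161 with an Otp region, against 5.26% of the 16102 without. These shares are not matched for GC content. Within deciles of GC content the core was more frequent in promoters with a region in 6 of 10 deciles (17.7% against 10.7% in the second). It was less frequent in the other 4, the lowest and the 3 highest (0.435% against 1.08% in the eighth). Those 4 held only 2, 4, 2 and 0 promoters with both a region and the core, against 13 to 22 in each of the 6. The direction of the pooled shares thus did not hold at matched GC content. ATGCAAA, the larger part of the POU octamer, was in none of the 8 member promoters and in 4.23% of all, and the E-box CACGTG was in none of the 8 and in 7.84% of all. A match is no binding site, and a window without one says nothing about sites elsewhere.

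Among 31 other transcription factor genes of this lineage or of neighbouring hypothalamus, 4 had an Otp region within 1 kb of an end (12.9%), against 27.2% of all protein-coding genes, and 5 had one at an end or inside (16.1%), against 35.3%. Of the 6 that are relatives of the listed genes, 3 had one. Arnt, the widely expressed relative of Arnt2, had the highest region (12.6-fold, 29 tags) with the summit 113 bp from an end. Pou3f4 had one (7.94-fold, 11 tags) 1 bp from an end, so that 3 of the 4 Pou3f genes, all but Pou3f1, had a region at an end. Ebf1 had one (7.48-fold, 11 tags) 867 bp away, while Nhlh1, Ebf2 and Ebf4 had none. Of the other 25 genes, the large zinc finger homeobox genes Zfhx4 and Zfhx3 had regions. Zfhx4 had one (5.92-fold, 10 tags) 119 bp from an end. Zfhx3, a gene of 682 kb, had 2 inside it and none within 1 kb of an end. The stronger of them (6.70-fold, 13 tags) lay 74818 bp from the nearest end. In all, 26 of the 31 genes had no Otp region at an end or inside. None of the 31 had an IgG region at an end or inside.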

How the data were processed

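Each library has 1 peak list in narrowPeak layout, called per sample. The tools named in the submitters' processing notes are MACS2, Bowtie2, SAMtools, Picard and Trimmomatic, with build mm10. Not given in the sources used here are versions, settings, duplicate handling and whether calling used a control. The authors' deposited values are a fold enrichment (a ratio at the summit), a −log10 p and a −log10 q (at least 2.01 in both lists). The deposited display score was not used.

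A pileup was accepted where 1 whole number gave the deposited −log10 p within 0.001 and its neighbours missed by over 0.005, under MACS2's definitions of fold (pileup plus 1 over background plus 1) and Poisson p. This held for 11288 Otp regions (99.2%) and 270 IgG regions (92.8%), and was tested on simulated data. As genome background the smallest value found at 3 or more regions was taken. Intervals (95%) cover counting error only, since PCR copies are not independent molecules.

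Genes came from the RefSeq table of GRCm38.p6, without the mitochondrial genome, and promoters from its sequence table (17492 coding genes matched). Distances run from the summit to the nearest base of the gene, or to its nearest end where stated. Lists overlapped with at least 1 shared bp. All genes of a length decile were used in place of random draws, so no chance test was built. The members, the list of 31 genes and the tests were chosen with earlier results of these data known. Described in full were all regions at a member, all IgG regions and the highest region by −log10 q of each window. Other neighbours, the comparison of pileup ratios, the promoter overlaps, the CCAAT search and the GC deciles were chosen after values were seen. Python 3.11.15, numpy 2.4.6, pandas 2.3.3 and scipy 1.17.1 were used.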

Additional observations from a re-analysis of the deposited data

How the results depend on the processing

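The pooled density of Otp regions at the 10 loci was 4.58 per Mb with a −log10 q minimum of 5, 1.28 with a minimum of 10 and 3.84 without regions at an end of another coding gene. It stayed within the interval of the first value at a fold enrichment of at least 5, in windows of 100 and 50 kb, and without regions that overlapped IgG. Leaving out the Uncx or the Otp locus, chosen after seeing the data, also kept it there. The IgG density stayed within its wide interval. Loci above the median of their comparison genes numbered 7 with gene count also matched and 2 to 4 under the other alternatives. Members with an Otp region at an end numbered 1 (Pou3f2) with a −log10 q minimum of 10, against 13.4% of all protein-coding genes. They numbered 6 within 5 kb, against 34.4%, and 3 at the others. The others were a −log10 q minimum of 5 (23.3% of all genes), a fold minimum of 5 (25.7%) and a distance of 500 bp (25.1%). Overlap with the promoter window was the last of these (24.3% of promoters). Members with one inside numbered 0 with a −log10 q minimum of 5 or 10 and 1 (Arnt2) with a fold minimum of 5. The share of all genes with one inside was 18.9% without these thresholds and is not given with them. With a reciprocal overlap of 50%, 0% of the Otp regions overlapped an IgG region. The stricter thresholds leave fewer regions by construction. Total depth is unknown and IgG was the shallower library. No paired analysis was possible because there is a single library per antibody, which also means that none could be left out.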

Other observations

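Of the 4 promoters printed with an Otp region, 3 hold letters that were not in the planned search. CCAAT, read on either strand, occurs 3 times in the 250 bases before the start of Pou3f3, 2 times before Pou3f2 and 4 times before A230054N11Rik, and lies under the Otp region at 3, 2 and 3 of these places. Arnt2 has none. In the promoter of Uncx, which has no region, it occurs 1 time. CCAAT is the core bound by the factor NF-Y, which acts at many promoters.

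The letters were looked for after these sequences had been seen, so the values are a description. Over the promoters of coding genes, which can overlap where a gene has several starts, CCAAT was in 53.7% of the 5161 with an Otp region, against 33.2% of the 16102 without. Within the seventh decile by GC content, that of Pou3f3 and Uncx, the shares were 54.6% and 29.0%. Within the highest decile, that of Arnt2 and Ebf3, they were 39.4% and 14.3%. Within promoters that had a region, CCAAT occurred 4.70 times per kb of bases under the region, against 1.28 times per kb of the other bases. CACGTG occurred 0.507 times per kb under the region, against 0.295 times per kb of the other bases. TAATTA went the other way, with 0.0435 times per kb under the region (37 matches) against 0.116 times per kb of the other bases (81 matches). Position and GC content were not matched in these values per kb. In a fixed stretch from 150 to 51 bases before the start, CCAAT occurred 4.37 times per kb in promoters with a region, against 1.77 in promoters without. In the same stretch CACGTG occurred 0.438 against 0.244 times per kb, and TAATTA 0.0698 against 0.256 times per kb. GC content was again not matched. For TAATTA over whole promoters, the core was more frequent with a region in 6 of 10 deciles of GC content, as described above.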
